A study of Homo sapiens with 12 samples.

Results

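MYC, its partner MAX and the nucleolar genes that build ribosomes were followed through 12 RNA-seq libraries of T24, an established human bladder carcinoma line. The 42 genes are a list of symbols, drawn up with earlier results of these data known. They span RNA polymerase I subunits, the proteins of small nucleolar ribonucleoproteins (snoRNPs), nucleolar chaperones, and assembly factors of the small (40S) and large (60S) ribosomal subunits. All 42 had an identifier among the 60603 in the count table (ENSG00000136997.19 for MYC, ENSG00000125952.19 for MAX), and all 42 were among the 17775 genes with enough counts to be tested.

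The labels give 4 groups of 3 libraries: WT cells untreated, WT cells with 5-Ad-IAA, NS1 cells untreated and NS1 cells with 5-Ad-IAA. 5-Ad-IAA is an auxin derivative, called the inducer below, with no dose or time in the labels. The study uses AlissAID, a system in which an auxin-dependent ubiquitin ligase is brought to an untagged endogenous protein so that the protein is degraded. The labels do not spell out NS1, which is also the name of a synthetic binder of RAS proteins, and do not say which parts of the system the WT cells carry or whether NS1 cells are 1 clone. Nothing in the labels says that the 3 replicates came from separate cultures, so the p-values measure the spread between these libraries, which may be technical.

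MYC is a transcription factor that binds DNA as a dimer with MAX, with a preference for the E-box CACGTG. Members of the MXD family and MNT also dimerise with MAX and occupy the same sites as repressors. Ribosome assembly begins in the nucleolus, where RNA polymerase I makes the precursor of the ribosomal RNAs, snoRNPs guide its modification, and ordered sets of assembly factors fold and cut it into the 2 subunits. Genes for these steps are textbook targets of MYC, and growing tumour cells express them at high levels.

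The E-box was looked for in the promoters of these genes, taken from RefSeq (GRCh38.p14) as 250 bases before to 50 after the annotated start. The motif is a palindrome, so both strands are read at once. Of the 36 members with an entry, 10 (27.8%) held CACGTG, beside 2548 of all 35116 promoters of the same length (7.26%) and 1478 of the 15957 promoters of tested genes (9.26%). In the 250 bases before the start alone the share of members was 3 of 36 (8.33%), beside 6.34% of all promoters, so most member motifs lay at or after the start. A match describes letters in the window and is not a measured binding site. The stretches from 50 bases before to 30 after the start are shown for 4 genes described below that differed between groups, on the gene's strand, with the E-box in capitals.
NAT10, chr11:34105579-34105658, plus strand: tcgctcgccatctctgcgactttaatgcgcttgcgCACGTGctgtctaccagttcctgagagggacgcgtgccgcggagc
UTP4, chr16:69132599-69132678, plus strand: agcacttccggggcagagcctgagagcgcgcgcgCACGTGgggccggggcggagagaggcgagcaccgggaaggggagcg
MRTO4, chr1:19251755-19251834, plus strand: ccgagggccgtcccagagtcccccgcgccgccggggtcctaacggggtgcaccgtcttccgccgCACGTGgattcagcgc
RRP9, chr3:51941875-51941954, minus strand: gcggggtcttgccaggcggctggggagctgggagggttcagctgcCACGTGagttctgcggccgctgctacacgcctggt

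The libraries held 10593934 to 20266996 counts assigned to genes. Levels are given as CPM, which are counts scaled to each library's total after normalisation by the trimmed mean of M-values (TMM). They are compared within a gene, or as a sum over the same genes. Differences are log2 fold changes from edgeR's quasi-likelihood test. Their standard error (SE) is an approximation, the size of the log2 fold change divided by the square root of the test's F statistic. A gene is called where its p, adjusted by Benjamini-Hochberg over all 17775 genes, is under 0.05. The epithelial keratin KRT7 lay between 1534 and 6020 CPM in every library, and the urothelial factor GATA3 between 22.2 and 104.5 CPM. KRT8, KRT18 and KRT19 were at least 174.9 CPM in every library. KRT5, TP63 and UPK3A had no count in any library, KRT20, CDH1 and UPK1B at most 2 and UPK1A at most 5. EPCAM was at most 4.50 CPM and UPK2 at most 2.30. The mesenchymal markers were present too, with FN1 between 2008 and 8864 CPM, CDH2 between 80.0 and 190.6 and VIM between 23.5 and 87.7. Of the blood and endothelial markers described here, PTPRC and CD3E had at most 1 count in any library, CD14 had 7 to 44 counts and PECAM1 1 to 47, CDH5 had up to 25 and VWF up to 13, and none of the 6 was above 2.82 CPM.

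Summed over the 42 genes, the level was 4622 ± 403 CPM (SD, n = 3) in untreated WT cells and 4659 ± 484 in WT cells with the inducer. In NS1 cells it was 5378 ± 209.6 without the inducer and 4182 ± 75.8 with it. The 3 treated NS1 libraries lay between 4101 and 4252, all below the 3 untreated NS1 libraries (5213 to 5614), and the 2 WT groups overlapped. NPM1 and NCL weigh most in these sums, with means of 1456 and 807 CPM in untreated NS1 cells and 1064 and 719 in untreated WT cells. Of the 42 genes, 32 had their lowest group mean in treated NS1 cells and 27 their highest in untreated NS1 cells. The share of all genes with these orders was not counted, so the 2 numbers have no background here. Within groups, replicate 1 tended to be the highest library: it held the highest value of 33 of the 42 genes in untreated WT cells (32.9% of all genes), and of 40 in WT cells with the inducer (41.0%). In NS1 cells the numbers were 27 without the inducer (41.0%) and 20 with it (39%). The median coefficient of variation of the 42 genes was 10.3% and 10.4% in the WT groups and 6.13% and 7.98% in the NS1 groups. In bulk RNA, a change in the share of cells that express a gene and a change per cell cannot be told apart. The summed level of 20 proliferation transcripts was 3751 ± 134 and 3731 ± 100.1 CPM in WT cells without and with the inducer. In NS1 cells it was 3177 ± 67.8 and 1980.4 ± 128. It thus fell with the inducer in NS1 cells, as the 42 genes did. Between the untreated lines it was lower in NS1 cells, where the sum of the 42 genes was higher. There 17 of the 20 transcripts lay below 0 and 4 were called lower, beside 7.05% of all genes. The part of proliferation in the results was not tested.

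**Figure D1:**
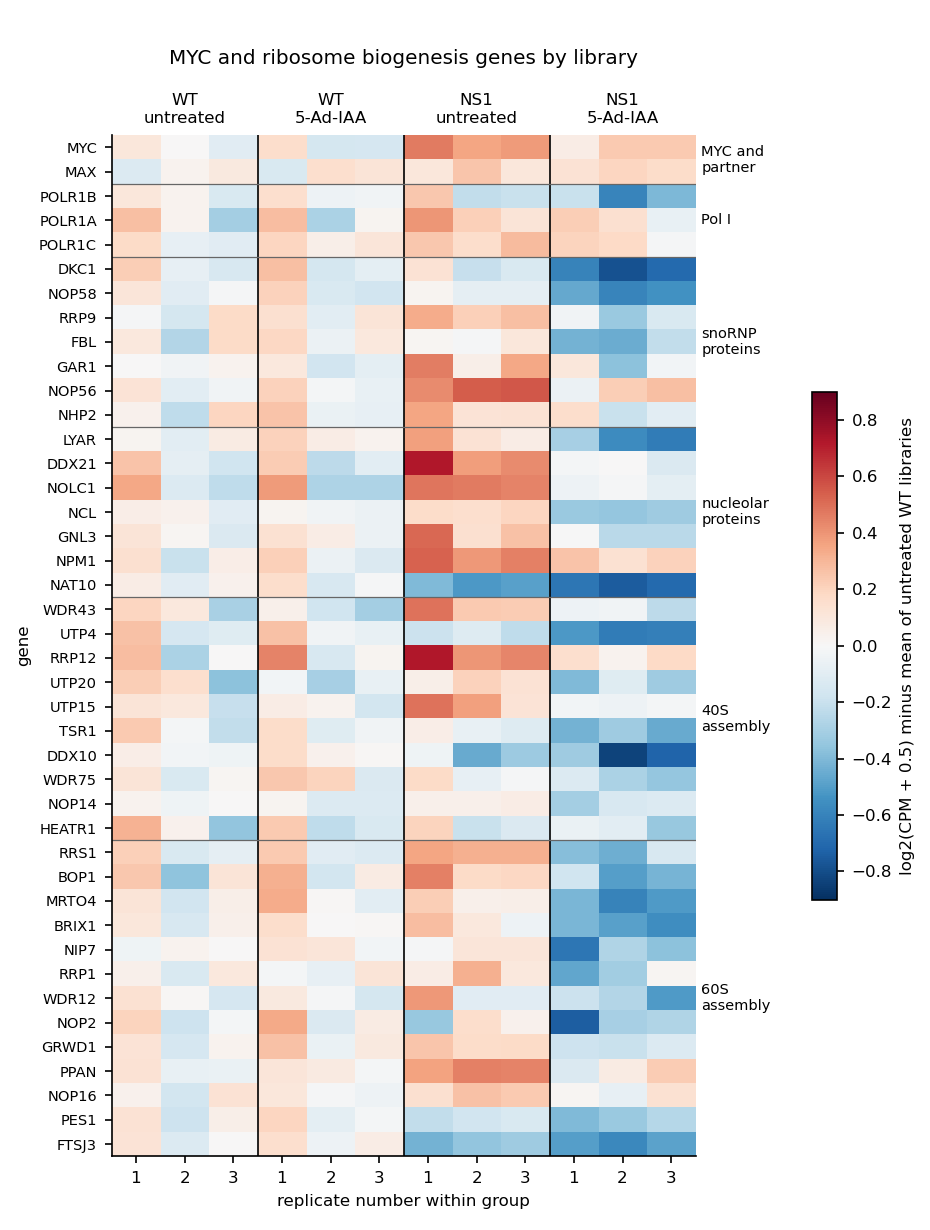
Each row is 1 of the 42 genes and each column 1 of the 12 libraries, with colour giving log2(CPM + 0.5) minus the gene's mean in the untreated WT libraries. Most rows are red in the untreated NS1 libraries and blue in the treated ones, and the WT groups resemble each other. NAT10, FTSJ3, PES1, UTP4 and DDX10 are blue in all 6 NS1 libraries, though only faintly for DDX10 in untreated replicate 1.

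With the inducer, 12 of the 42 genes fell in NS1 cells and none rose, beside 3.39% of all tested genes called lower and 2.76% called higher. Their falls were modest, from 1.36-fold (RRP9) to 1.62-fold (LYAR). The log2 fold change was below 0 for 41 of the 42, beside 49.2% of all genes, with a median of -0.39 beside 0.0055 over all genes. In 33 of the 42 every treated NS1 library lay below every untreated one, beside 14% of all genes, and in none did every treated library lie above. DESeq2 called 16 lower, beside 4.38% of all genes. The range ran from -0.70 (LYAR) to 0.01 (MAX), and 32 genes had an unadjusted p under 0.05, beside 20.8% of all genes.

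MYC itself was not among the genes called. It had 69.1, 63.9 and 65.3 CPM in untreated NS1 replicates 1 to 3 and 52.1, 58.8 and 58.8 in the treated ones. The treated libraries all lay below the untreated, and the log2 difference was -0.23 (SE 0.11), with adjusted p = 0.265 in edgeR's test. MAX had 57.4, 63.5 and 57.5 CPM without the inducer and 58.4, 61.2 and 60.04 with it, so the groups overlapped. Its log2 difference was 0.01 (SE 0.10, adjusted p = 0.976 in edgeR's test).

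None of the 3 RNA polymerase I subunits was called; POLR1A and POLR1B form the catalytic core, and POLR1C is shared with RNA polymerase III. Their log2 fold changes were -0.35 (POLR1B), -0.15 (POLR1A) and -0.10 (POLR1C), with a median of -0.15, and the groups overlapped for all 3.

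Of the 7 snoRNP proteins, 3 fell, and the median of the group was -0.40. DKC1, the pseudouridine synthase of box H/ACA snoRNPs, had 182, 144 and 151 CPM in untreated NS1 cells and 109.8, 96.7 and 102 with the inducer. All 3 treated libraries were below the lowest untreated one (-0.63, SE 0.14, adjusted p = 0.0211 in edgeR's test). NOP58, a core protein of box C/D snoRNPs, had 75.4, 70.1 and 70.0 CPM without and 53.8, 48.9 and 50.7 with the inducer (-0.49, SE 0.11, adjusted p = 0.0232 in edgeR's test). RRP9, which binds the U3 snoRNA, completed the 3 at -0.44 (SE 0.12, adjusted p = 0.0456 in edgeR's test), with untreated libraries between 37.0 and 40.1 CPM and treated ones between 25.1 and 31.0. The methyltransferase FBL (-0.40, adjusted p = 0.0704) and NOP56 (-0.36, adjusted p = 0.0865), both of box C/D snoRNPs, were not called by edgeR's test, and the smallest difference was that of NHP2 (-0.24).

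The nucleolar chaperones, organisers and modifiers had the lowest median, -0.50, and 4 of 7 fell. LYAR, a nucleolar zinc-finger protein, went from 29.998, 25.4 and 24.2 CPM to 18.7, 15.5 and 14.8, with no overlap (-0.70, SE 0.13, adjusted p = 0.00759 in edgeR's test). NCL, which encodes nucleolin, an abundant protein that binds ribosomal RNA, had close replicates in both NS1 groups: 805, 797 and 819.7 CPM without the inducer and 569, 565 and 576 with it (-0.50, SE 0.09, adjusted p = 0.00719 in edgeR's test). DDX21, an RNA helicase, went from 292, 230.1 and 237 CPM to 175, 178 and 162 (-0.56, SE 0.15, adjusted p = 0.0398 in edgeR's test). GNL3, also known as nucleostemin, went from 58.9, 45.5 and 49.5 CPM to 40.9, 34.7 and 34.7 (-0.48, SE 0.12, adjusted p = 0.0351 in edgeR's test). NOLC1, a snoRNP chaperone, had 162, 160.4 and 158 CPM against 111.9, 114.7 and 109.03, a difference of -0.52, but was not called (adjusted p = 0.110 in edgeR's test). Its WT libraries ranged more widely, from 95.2 to 151 CPM. Also not called were NPM1 (-0.26) and the RNA acetyltransferase NAT10 (-0.23), although all 7 genes had no overlap between the groups.

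None of the 10 genes of the small-subunit processome and 40S assembly was called, while 9 of them had an unadjusted p under 0.05 and 8 had no overlap between the groups. Their log2 fold changes ran from -0.43 (WDR43) to -0.13 (HEATR1), with a median of -0.37. UTP4, whose promoter is printed above, went from 74.7, 79.0 and 72.8 CPM to 59.7, 55.2 and 55.8 without being called in this comparison.

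Of the 13 genes of 60S assembly, 5 fell. RRS1, needed to bring 5S RNA into the early particle, had 47.1, 46.1 and 46.0 CPM in untreated NS1 cells and 28.1, 27.0 and 33.3 in treated ones (-0.66, SE 0.13, adjusted p = 0.0125 in edgeR's test). BOP1, which forms a complex with PES1 and WDR12, went from 143, 118 and 119 CPM to 92.3, 73.9 and 78.1 (-0.64, SE 0.17, adjusted p = 0.0399 in edgeR's test). Its 2 partners were not called (PES1 -0.15, WDR12 -0.41). MRTO4, a factor that holds the place of the stalk protein P0, went from 92.3, 81.8 and 81.9 CPM to 59.5, 51.9 and 55.4 (-0.62, SE 0.13, adjusted p = 0.0130 in edgeR's test). BRIX1, an early assembly factor at chromosome 5, 34915376 to 34925996 in hg38, went from 48.0, 42.2 and 38.3 CPM to 29.5, 27.9 and 26.7 (-0.61, SE 0.11, adjusted p = 0.00835 in edgeR's test). NIP7, which also takes part in pre-ribosomal RNA processing, went from 57.8, 62.7 and 62.7 CPM to 36.9, 48.1 and 44.9 (-0.50, SE 0.11, adjusted p = 0.0163 in edgeR's test). In all 5 the treated libraries lay below the untreated ones, and the group's smallest difference was that of FTSJ3 (-0.15).

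**Figure D2:**
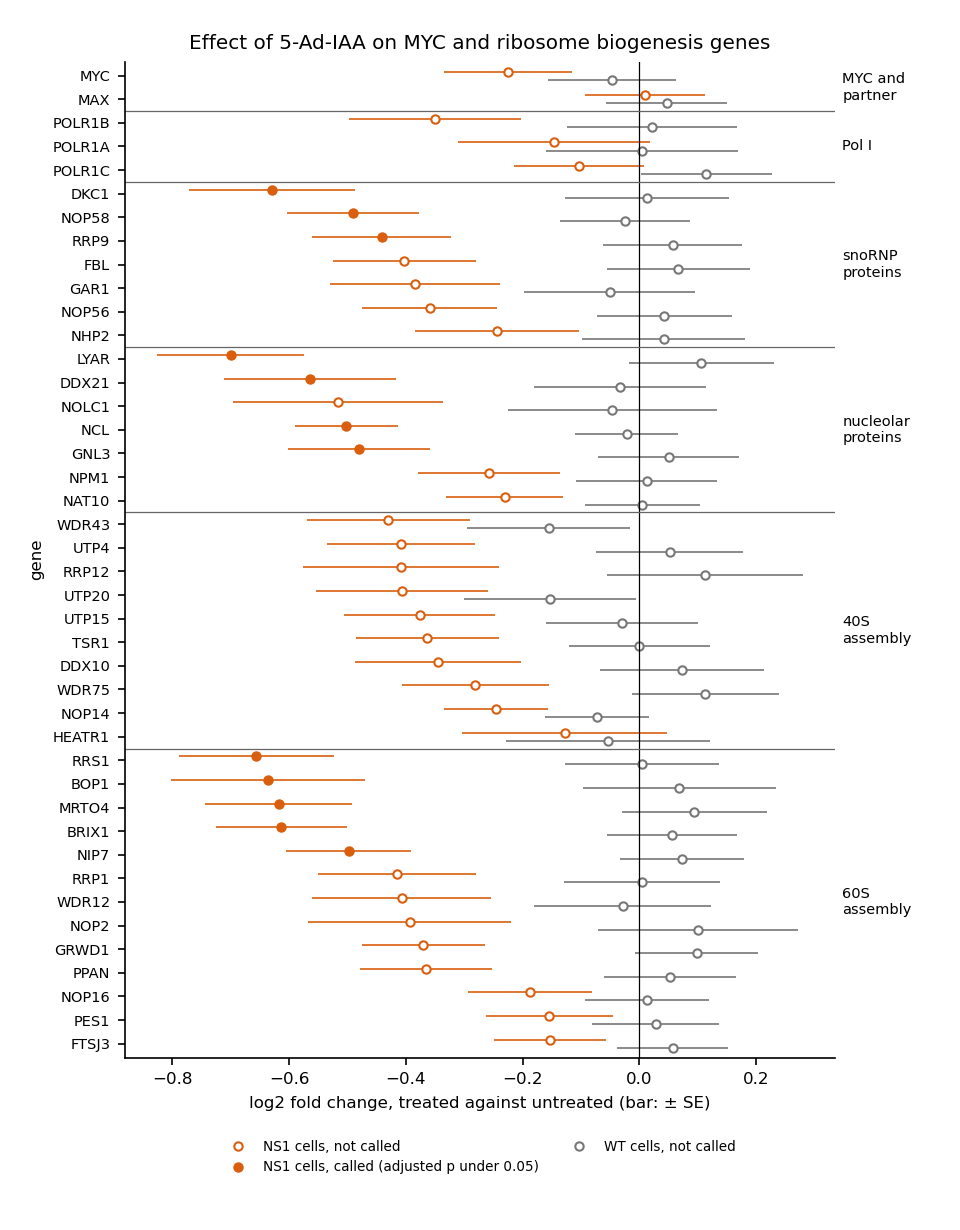
Points give each gene's log2 fold change with the inducer in NS1 cells (orange) and WT cells (grey), bars ± 1 SE, filled where called. The orange points lie left of 0 for 41 of 42 genes and 12 are filled, while the grey points scatter between -0.16 and 0.11 with none filled.

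Same-numbered untreated and treated libraries deviated together, and a paired reading is given beside the main fit. Differently numbered libraries were not compared, so whether the numbers mark true pairs was not tested. Within the 3 NS1 pairs the median difference of the 42 genes was -0.45, -0.37 and -0.33, and 39 genes were lower in all 3 pairs, beside 28.6% of all genes. The exceptions were MAX, POLR1C and HEATR1. With the replicate number as a block common to both lines, 26 of the 42 fell (background 7.12%). With a block within each line 35 fell (background 12.8%), and both fits included the 12 above. Among all fits of this comparison, MYC fell only with the block within each line (-0.23, adjusted p = 0.0446 in edgeR's test). The 7 genes not called there were MAX, the polymerase subunits POLR1A and POLR1C, and HEATR1, NOP16, PES1 and FTSJ3.

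The individual calls depended on the libraries more than the direction did. LYAR, BRIX1 and NCL were called in all 6 fits that left out 1 NS1 library, RRS1 in 5, MRTO4 in 4, NIP7 in 3, DKC1 and GNL3 in 2, BOP1, NOP58 and RRP9 in 1, and DDX21 in none. Those 6 fits called 6, 7 and 5 members without untreated replicates 1, 2 and 3, and 12, 4 and 5 without treated replicates 1, 2 and 3. The shares of all genes called lower in them were 1.9%, 1.37% and 1.44%, and 2.91%, 1.67% and 1.18%. Leaving out replicate 2 or replicate 3 of every group left no call among the 42 genes or among all genes. In those fits 20 and 22 members had an unadjusted p under 0.05, and the share of all genes at that cut was not counted. Leaving out replicate 1 gave 17 calls (background 5.22% lower). The median of the 42 genes stayed between -0.41 and -0.34 in every fit with a replicate left out.

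In WT cells the inducer was followed by no call among the 42 genes, and none had an unadjusted p under 0.05, beside 0.529% of all genes. DESeq2 and both blocked fits also called none, and the share of all genes called was 0%. The log2 fold changes ran from -0.16 (WDR43) to 0.11 (POLR1C), with a median of 0.03, with 13 genes below 0 beside 50.3% of all genes. The number below 0 ranged from 5 to 28 when 1 library was left out. The groups overlapped for all 42, beside 1.68% of all genes with every treated library higher and 1.73% with every one lower. MYC had 53.6, 49.8 and 46.3 CPM without and 55.6, 44.5 and 44.8 with the inducer (-0.05, SE 0.11), and MAX 49.1, 54.7 and 56.8 against 48.6, 59.5 and 57.8 (0.05, SE 0.10). Within the 3 WT pairs, 3 genes were lower in all pairs (background 9.27%) and 8 higher in all pairs (background 9.3%).

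**Figure D3:**
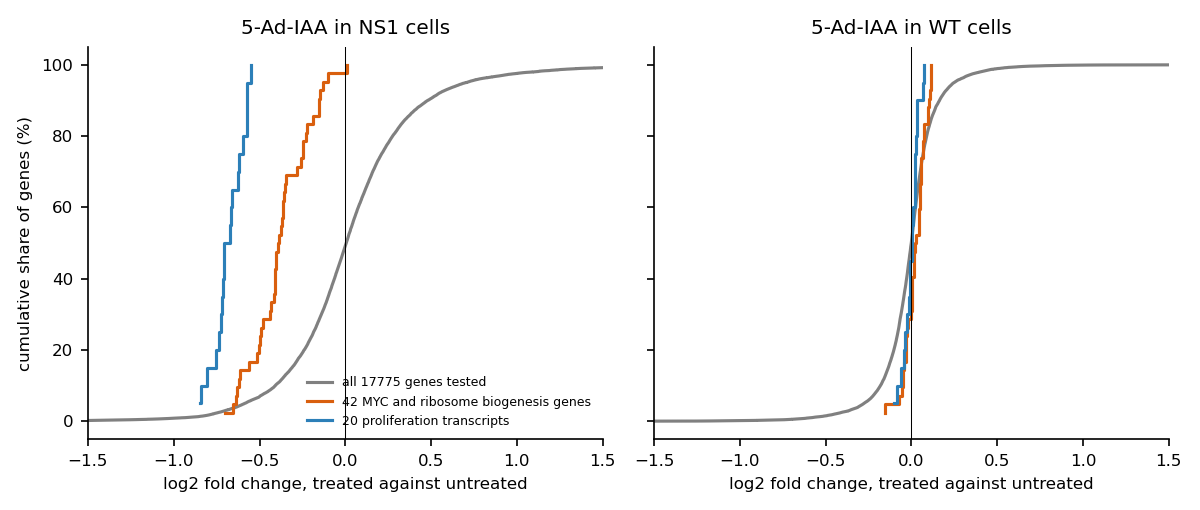
Cumulative share of genes (vertical axis, percent) against the log2 fold change with the inducer, in NS1 cells on the left and WT cells on the right. In NS1 cells the curve of the 42 genes (orange) lies left of that of all 17775 tested genes (grey), with medians of -0.39 and 0.0055, and right of the 20 proliferation transcripts (blue, median -0.69). In WT cells the 3 curves cross near 0.

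Whether the inducer's effect differed between NS1 and WT cells was tested as the interaction of the 2 factors. None of the 42 genes was called, beside 0.0225% of all genes (4 of 17775), while 20 had an unadjusted p under 0.05, beside 12.4% of all genes. The estimate was below 0 for 42 of 42 genes, beside 49.3% of all genes, with a median of -0.41. It ran from -0.81 (LYAR, SE 0.18, adjusted p = 0.0821 in edgeR's test) to -0.04 (MAX), and for MYC it was -0.18 (SE 0.16, adjusted p = 0.742 in edgeR's test). Pairing changed this count: 11 genes were lower with the replicate block (background 1.86%) and 23 with the block within each line (background 7.06%). In the latter BOP1 (-0.71, adjusted p = 0.000307), LYAR (-0.81, adjusted p = 0.000472) and DKC1 (-0.64, adjusted p = 0.000628) led, and MYC was not called (adjusted p = 0.338). DESeq2 called 5 lower (background 1.15%).

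Without the inducer, NS1 cells differed from WT cells in 7 of the 42 genes, 5 higher and 2 lower, beside 5.45% of all genes higher and 7.05% lower. The median was 0.17 beside 0.0001 over all genes, and 31 of the 42 lay above 0 and 11 below, beside 50% of all genes below. In 18 genes every NS1 library lay above every WT library (background 14.8%), and in 3 below (background 16.2%). These comparisons share libraries with those above, so a high untreated NS1 level enters both.

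MYC was one of the 5 higher genes. Its untreated NS1 libraries, at 63.9 to 69.1 CPM, all lay above the untreated WT libraries, at 46.3 to 53.6, for means of 66.1 ± 2.7 and 49.9 ± 3.7 CPM (SD, n = 3). The difference was 0.40 on the log2 scale (SE 0.11, adjusted p = 0.0300 in edgeR's test). That call held in 4 of the 7 other fits of all libraries and in 1 of the 6 that left out a library. MAX was not called (0.15, SE 0.10, adjusted p = 0.362 in edgeR's test).

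NOP56, a core protein of box C/D snoRNPs, had 167, 143 and 149.9 CPM in untreated WT cells and 206, 224 and 226 in untreated NS1 cells, with no overlap (0.51, SE 0.12, adjusted p = 0.0128 in edgeR's test). DDX21 was higher by 0.50 (SE 0.15, adjusted p = 0.0406 in edgeR's test), from 211, 168 and 156 CPM in WT to 292, 230.1 and 237. NPM1, the nucleolar chaperone nucleophosmin, had 1169.8, 921 and 1102 CPM in WT and 1527, 1390.2 and 1451 in NS1 cells (0.45, SE 0.12, adjusted p = 0.0278 in edgeR's test). NPM1 has many processed copies in the genome: 34 identifiers named as its pseudogenes carried counts, with a summed mean of 677 CPM beside 1203 for NPM1, so its reads may be split. With the copies added, the means were 1664 ± 202 and 2278 ± 95.5 CPM (SD, n = 3). PPAN, a 60S assembly factor, had 26.1, 22.7 and 22.8 CPM in WT and 30.9, 32.9 and 32.6 in NS1 cells (0.42, SE 0.11, adjusted p = 0.0278 in edgeR's test). Of its exon length 56.02% overlaps the readthrough gene PPAN-P2RY11 on the same strand, so its counts are uncertain. RRP12, a 40S assembly factor at 0.51, was not called (adjusted p = 0.0643 in edgeR's test).

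NAT10 and FTSJ3 were the 2 lower genes. NAT10, which acetylates ribosomal RNA, had 99.4, 88.4 and 97.6 CPM in untreated WT cells and 72.0, 66.1 and 67.5 in untreated NS1 cells (-0.47, SE 0.10, adjusted p = 0.00862 in edgeR's test). FTSJ3, a methyltransferase of 60S assembly, was lower too (-0.37, SE 0.10, adjusted p = 0.0229 in edgeR's test), with 113.8 to 135 CPM in WT and 92.3 to 99.3 in NS1. FTSJ3 shares 16.77% of its exon length with PSMC5 on the opposite strand, NIP7 20.15% with COG8 and TSR1 20.67% with SRR. The counting strand is not given in the sources used here, so the counts of these 3 genes are uncertain. Other members overlap genes too, among them NHP2 (27.42%), HEATR1 (23.15%), NOP14 (17.1%) and BRIX1 (9.62%) on the opposite strand. RRS1 shares 11.37% with a gene on the same strand. The NAT10 call held in 6 of the 6 fits that left out a library, that of NOP56 in 5, those of NPM1 and FTSJ3 in 2 and those of DDX21 and PPAN in 1. The number of members called moved between 1 (without untreated NS1 replicate 3) and 8 (without untreated WT replicate 1), beside 6.96% and 9.82% of all genes called in these 2 fits. Without replicate 2 or replicate 3 of every group none was called, beside 1.13% and 1% of all genes. In those fits 9 and 8 members had an unadjusted p under 0.05, and the share of all genes at that cut was not counted. With all libraries 14 of the 42 and 4948 of all 17775 genes passed it.

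**Figure D4:**
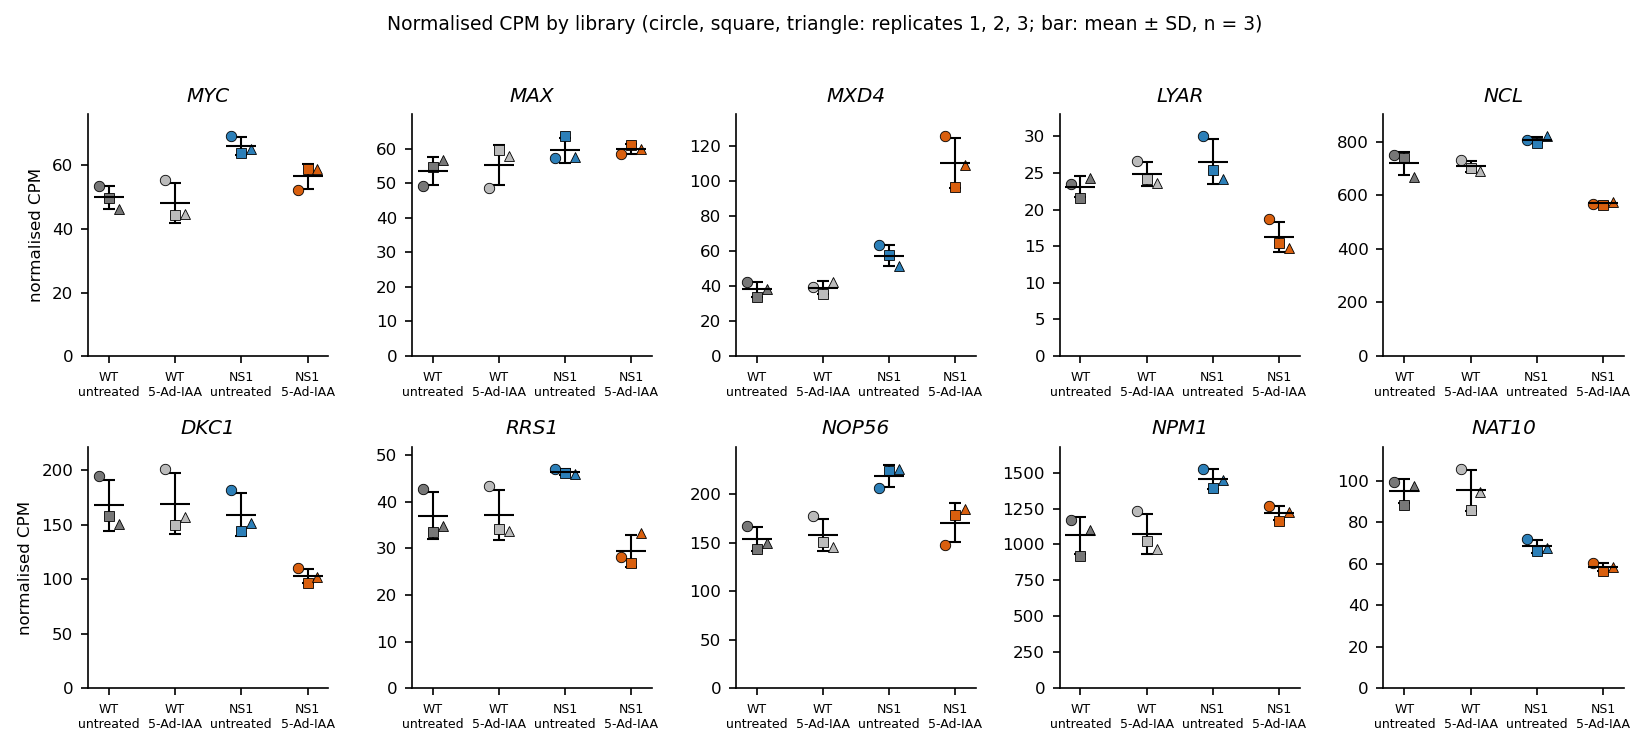
Normalised CPM in each of the 12 libraries for MYC, MAX, MXD4 and 7 ribosome assembly genes, by group, with the mean and SD (n = 3). LYAR, NCL, DKC1 and RRS1 are lowest in the treated NS1 libraries, NOP56 and NPM1 are highest in the untreated NS1 libraries, NAT10 is lower in both NS1 groups, and MXD4 is highest with the inducer in NS1 cells.

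With the inducer in both lines, 17 of the 42 genes were lower in NS1 than in WT cells and none higher, beside 14.5% of all genes lower and 13.6% higher. The median was -0.27 beside -0.0036 over all genes, 33 of 42 lay below 0 (background 50.4%), and in 21 genes every NS1 library lay below every WT one, in none above (background 22.2% below, 21.2% above). By role the lower genes were 1 of 3 polymerase subunits (POLR1B), 3 of 7 snoRNP proteins, 3 of 7 nucleolar proteins, 4 of 10 genes of 40S assembly and 6 of 13 of 60S assembly.

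DKC1 had the largest difference, with 201, 149 and 157 CPM in treated WT cells and 109.8, 96.7 and 102 in treated NS1 cells (-0.72, SE 0.14, adjusted p = 0.00238 in edgeR's test). NAT10 followed, at 105.9, 86.0 and 94.5 against 60.5, 56.5 and 58.3 CPM (-0.71, SE 0.10, adjusted p = 0.000249 in edgeR's test). DDX10, a helicase of the processome, had 52.2, 47.8 and 47.0 CPM in WT and 37.2, 25.9 and 28.1 in NS1 cells (-0.68, SE 0.14, adjusted p = 0.00322 in edgeR's test). UTP4, a WD-repeat protein of the same particle, had 102.9, 83.9 and 81.6 against 59.7, 55.2 and 55.8 (-0.65, SE 0.13, adjusted p = 0.00204 in edgeR's test). For none of these 4 genes did the groups overlap. The other called genes of 40S assembly were TSR1 (-0.42) and WDR75 (-0.37), and those of 60S assembly MRTO4 (-0.61), FTSJ3 (-0.58), BRIX1 (-0.55), NOP2 (-0.54), NIP7 (-0.50) and PES1 (-0.36). Of the exon length of NOP2, 54.41% overlaps another annotated gene on the same strand, so its counts are uncertain. LYAR (-0.60), NOP58 (-0.51) and FBL (-0.44) were also lower among the nucleolar and snoRNP genes, and POLR1B was at -0.42. Across the 42 genes, 10 were lower and 1 higher without treated WT replicate 1 (background 12.8% lower, 11.7% higher), and 11 were lower without treated NS1 replicate 2 (background 10.7%). Without replicate 2 of every group 4 were lower (background 4.5%), and without replicate 3 there were 6 (background 5.7%). The smallest called difference was that of NCL (-0.31, adjusted p = 0.0182 in edgeR's test).

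The estimate for MYC had the opposite sign to most of these genes and was not called. MYC had 44.5 to 55.6 CPM in treated WT cells and 52.1 to 58.8 in treated NS1 cells, which overlapped, and the difference was 0.22 (SE 0.11, adjusted p = 0.146 in edgeR's test). Without replicate 1 of every group it was called higher (0.40, adjusted p = 0.00775), as was NOP56 (0.29, adjusted p = 0.0268), and 15 members were then lower (background 17.1% lower, 16.9% higher). MAX was at 0.12 (SE 0.10, adjusted p = 0.434 in edgeR's test).

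**Figure D5:**
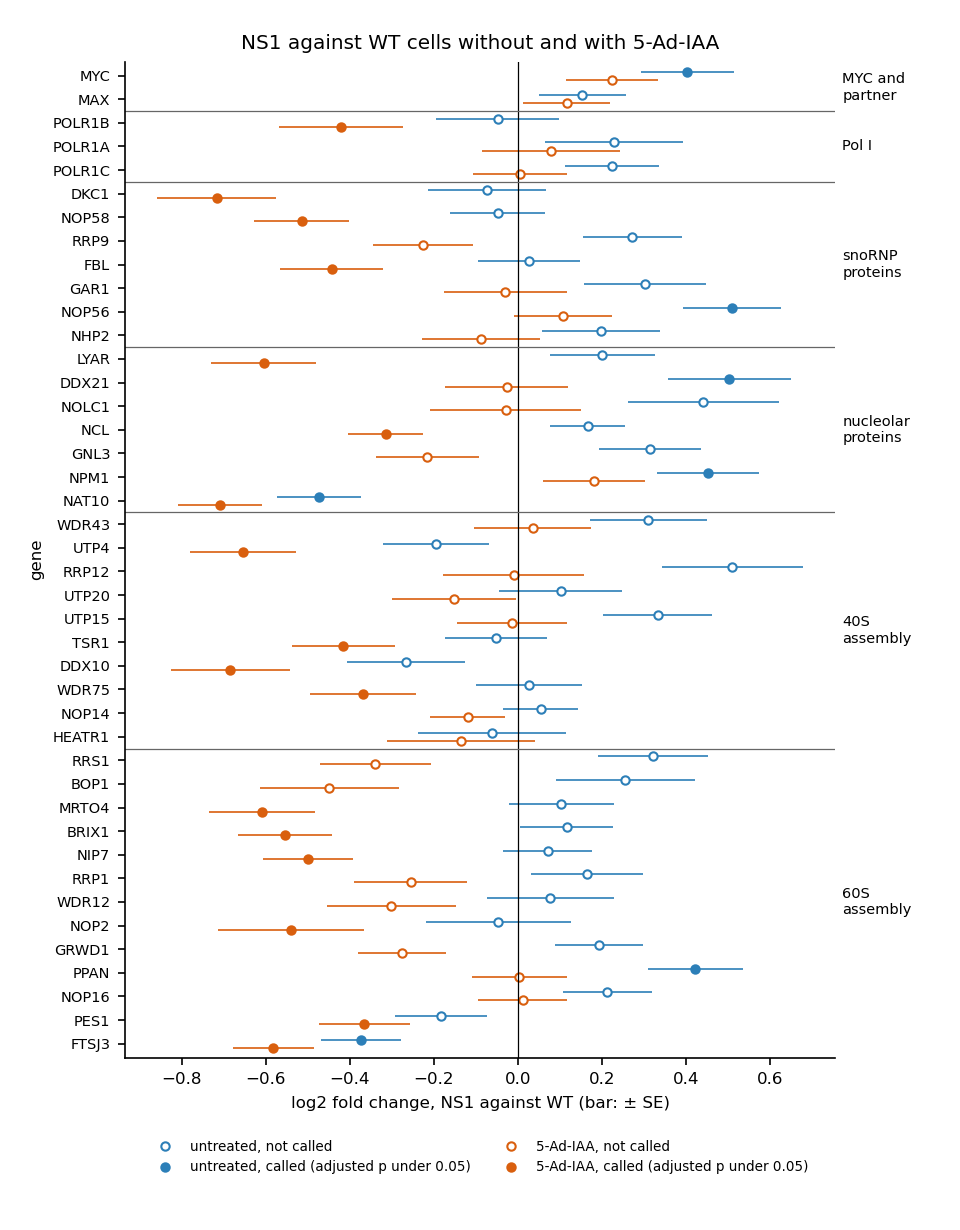
Log2 fold change of NS1 against WT cells for the 42 genes, untreated (blue) and with the inducer (orange), with bars of ± 1 SE and filled points where called. For all 42 genes the orange point lies left of the blue one. Of the blue points 5 are filled right of 0 and 2 left, and 17 orange points are filled, all left of 0.

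Among 8 tested factors of the wider MYC network, MXD4 was the only one called in NS1 cells with the inducer. It was higher, beside 2.76% of all genes called higher and 3.39% lower. Of the 8, 5 had an unadjusted p under 0.05, beside 20.8% of all genes. Between the treated lines 3 of the 8 were called higher and 2 lower in NS1 cells, beside 13.6% and 14.5% of all genes. Between the untreated lines 1 was called higher and 1 lower, beside 5.45% and 7.05%. MXD4 encodes a MAX partner of the MXD repressor family. It had 63.6, 57.6 and 51.5 CPM in untreated NS1 cells and 126, 96.6 and 109 in treated ones, with no overlap (0.94, SE 0.13, adjusted p = 0.00298 in edgeR's test). In WT cells it had 42.4, 33.8 and 38.6 CPM without and 39.3, 35.6 and 42.6 with the inducer (0.03, adjusted p = 1). It was higher in NS1 than in WT cells both untreated (0.59, adjusted p = 0.0111) and treated (1.498, adjusted p = 9.28e-06 in edgeR's test). The difference between the 2 inducer effects was 0.91 (SE 0.18), with adjusted p = 0.0713 in edgeR's test and 0.0111 with the replicate block.

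Other genes of ribosome production were read from lists separate from the 42, beside the 3.39% of all genes called lower and 2.76% called higher. Of 18 other genes of RNA polymerase I transcription, 2 fell with the inducer in NS1 cells and none rose (median -0.12): POLR1G, a polymerase subunit, by -0.66 (adjusted p = 0.00593 in edgeR's test) and TCOF1, which encodes the nucleolar protein treacle, by -0.58 (adjusted p = 0.00670). Of 44 other genes of 40S assembly 5 fell and none rose (median -0.28), led by PNO1 (-0.58, adjusted p = 0.0235) and the kinase RIOK1 (-0.52, adjusted p = 0.0302 in edgeR's test). Of 45 other genes of 60S assembly 2 fell (4.44%, near the share of all genes) and none rose (median -0.27): the helicase DDX55 (-0.49, adjusted p = 0.0336) and the GTPase GTPBP4 (-0.45, adjusted p = 0.0231 in edgeR's test).

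Known MYC targets outside ribosome assembly were read likewise, and 5 of 16 fell with none rising (median -0.33), beside the same 3.39% and 2.76% of all genes. ODC1, a rate-limiting enzyme of polyamine synthesis, changed by -0.89 (SE 0.18, adjusted p = 0.0119 in edgeR's test) and PPAT, an enzyme of purine synthesis, by -0.65 (adjusted p = 0.00995). Of the 20 proliferation transcripts, 16 fell and none rose (median -0.69), led by the mitotic kinases PLK1 (-0.85, adjusted p = 0.00129) and AURKB (-0.84, adjusted p = 0.00553 in edgeR's test). In WT cells the inducer was followed by no call in any of these lists.

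The members with and without the E-box were also set side by side. The median log2 fold change with the inducer in NS1 cells was -0.40 for the 10 members with CACGTG and -0.36 for the 26 without. Of the 9 called members with a promoter entry 2 held the motif, and of the 27 not called 8 did. Other 40S and 60S assembly genes held it in 16 of 38 (42.1%) and 14 of 40 (35%) promoters.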

How the data were processed

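The authors deposited raw whole-number read counts per gene for the 12 libraries, in 1 table. Per the labels' protocols, poly(A) RNA was isolated and sequenced on a NextSeq. The submitters' processing notes name STAR 2.7.3a, featureCounts 1.6.4 and hg38; settings, strand and annotation are not given in the sources used here. Without a known strand setting, overlapping and antisense genes cannot be told apart.

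From the counts, genes were filtered with filterByExpr, scaled by TMM and fitted with edgeR 4.0.16 (R 4.3.3, limma 3.58.1), with 1 mean per group and all 12 libraries. The same script was tested on simulated data with changes set in the treated NS1 libraries. It recovered 12 of 50 changes of 0.585 on the log2 scale and 48 of 50 changes of 1. True changes of the size seen in the 42 genes can therefore go uncalled. DESeq2 1.42.0, library totals, other filters, replicate blocks and left-out libraries were alternatives. 12 of the 42 members had the same versioned identifier in GENCODE 29, from which exon overlaps and positions were read.

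The members and lists were chosen with earlier results of these data known. Named genes were MYC, MAX, the called members with the largest changes (8 each way with the inducer in NS1 cells, 4 in other comparisons), the ends of each role group and 2 called genes each way per other list. NOP58, GNL3, RRP9 and NIP7, the rest of the called members, and a few members not called were added after their values were seen.

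Replicate numbers come from the sample titles. Deviations of same-numbered untreated and treated libraries correlated at 0.781, 0.412 and 0.261 in WT and 0.746, 0.435 and 0.439 in NS1 cells, so the numbers were taken as pairs there.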

Additional observations from a re-analysis of the deposited data

How the results depend on the processing

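For the inducer in NS1 cells, 12 members were called, all lower, beside 3.39% of all genes called lower. The count was 26 with the replicate block (background 7.12%) and 35 with a replicate block within each line (background 12.8%). It was 16 with DESeq2 (background 4.38%) or library totals (background 4.27%). With replicates left out it was 0 to 17 (background 0% to 5.22%), and 0 without replicate 2 or replicate 3 of every group. In WT cells no fit called a member. Untreated NS1 against WT gave 7 calls, beside 12.5% of all genes called in either direction. There were 13 with the replicate block (background 22%) and 2 with only the compared groups (background 9.3%). With replicates left out there were 0 to 10 (background 1% to 19.6%). With the inducer in both lines there were 17 calls, beside 28.2% of all genes called in either direction. These became 4 to 17 with replicates left out (background 9.03% to 34%) and 15 to 21 in the other fits (background 16.1% to 37.5%). The interaction gave 0 calls, beside 0.0113% of all genes called lower. There were 4 lower with no filter on low counts (background 0.81%), and 11 and 23 with the 2 blocks (background 1.86% and 7.06%). DESeq2 gave 5 (background 1.15%), and fits with replicates left out 0 to 3 (background 0% to 1.53%). Between the lines, same-numbered libraries correlated at 0.135, 0.0838 and 0.214 untreated and 0.148, 0.127 and -0.00354 treated. No paired differences were therefore read between the lines. The replicate block still assumes replicate effects common to both lines, while the block within each line does not. The E-box share of members was 8.33% before the start alone.

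Signs were followed for the called genes in their comparison and for MYC, MAX and MXD4 in every comparison. Among these, signs reversed only for values near 0. MAX with the inducer in NS1 cells was -0.0501 with library totals, which moved the median of all genes to -0.054, and ranged from -0.0168 to 0.0609 with replicates left out. With replicates left out, MAX ranged from -0.014 to 0.13 in WT cells and from -0.13 to 0.0383 in the interaction, MYC in WT cells from -0.16 to 0.00935 and MXD4 in WT cells from -0.0506 to 0.12. Over all 42 genes with 1 library left out, 5 to 28 lay below 0 in WT cells with the inducer, with medians from -0.061 to 0.108. Between the lines 5 to 13 lay below 0 untreated and 26 to 37 treated. In the interaction 41 or 42 lay below 0, and 40 to 42 with a replicate number left out of every group. Library totals gave 17.9% of all genes lower and 10.5% higher between the treated lines. Over the whole table, the block within each line called 4596 genes with the inducer in NS1 cells and the single block 2421, beside 1093, and leaving out replicates gave 0 to 2021. Untreated lines differed in 2222 genes (182 to 3908 over the alternatives), treated lines in 5007 (1632 to 6670), and the interaction in 4 (0 to 2495). Depth was not scarce for the members: none had fewer than 168 counts in any library.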
